A study of Mus musculus with 12 samples.

Results

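Tensins and the focal adhesion adaptors around them were followed in 10 genes, taken by symbol from the 35013 genes listed: the tensins Tns1, Tns2, Tns3 and Tns4, and Pxn, Vcl, Tln1, Ptk2, Zyx and Ilk. Each symbol matched 1 gene, and all 10 were among the 13502 genes tested. Poly-A RNA had been sequenced from KP1, a mouse cell line labelled as lung adenocarcinoma, in 4 groups of 3 biological replicates: cells overexpressing NRF2 (NRF2 OE) with 5 nM romidepsin, empty-vector (EV) cells with 5 nM romidepsin, NRF2 cells with DMSO, and EV cells with DMSO, each treated for 16 h. NRF2 is a transcription factor of the oxidative stress response, romidepsin inhibits class I histone deacetylases, and DMSO is the solvent. The labels do not give the promoter or species of the NRF2 insert, nor whether each line came from 1 or several transductions, so the error is the spread between these replicates. The series title places the comparison in the question of how histone deacetylase inhibition acts on tumours with active NRF2.

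Focal adhesions are the sites where integrins, the transmembrane receptors for the extracellular matrix, are coupled to the actin cytoskeleton. Talin binds the tail of the integrin beta subunit and pulls it into its active form, vinculin reinforces the bond between talin and actin, and paxillin, focal adhesion kinase and integrin-linked kinase gather signalling and adaptor proteins there. Tensins bind the integrin tail through a phosphotyrosine-binding domain and mark mature, elongated adhesions. Tensin 4, also called Cten, is shorter than the other tensins and does not link integrins to actin in the same way.

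Tns1 was chosen because it had stood among the largest rises in NRF2 over EV cells with DMSO, and the other 9 genes were added as its family and its partners at the adhesion. The difference between NRF2 and EV cells with DMSO is therefore given for all 10 as a description with no test. For Tns1 the comparisons that share those DMSO libraries are also untested, which leaves NRF2 over EV cells with romidepsin as the tested comparison of Tns1. For the other 9 the difference in romidepsin response between the lines was tested, although it contains that DMSO comparison. Levels are in CPM, the usual depth-normalized unit for counts, with TMM factors, given as mean ± SD over 3 libraries. Changes are log2 fold changes ± SE from edgeR's quasi-likelihood test, called at a Benjamini-Hochberg adjusted p under 0.05 over all genes tested.

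The 12 libraries held 16842824 to 28003010 estimated counts. Nfe2l2, the gene of NRF2, followed the labels, with 339 to 365 CPM in NRF2 cells with romidepsin, 93.3 to 99 CPM in EV cells with romidepsin, 281 to 352 CPM in NRF2 cells with DMSO and 101 to 103 CPM in EV cells with DMSO. Replicate 3 of NRF2 cells with DMSO stood farthest from its replicates, at a root mean square log2 distance of 0.465, against 0.255 to 0.350 in the other libraries. It also had the highest share of mitochondrial counts, 7.30%, against 4.84 to 6.35% in the other libraries. Of 12 lung epithelial markers 6 averaged at least 1 CPM, among them Cdh1 and the keratins, while Nkx2-1, Sftpc, Sftpb, Scgb1a1 and Napsa averaged at most 0.317 CPM in any group and Sftpa1 had no count; the summed level of the list was 9420 to 9910 CPM in NRF2 and 6360 to 6500 CPM in EV cells with romidepsin, and 5480 to 6190 CPM in NRF2 and 3750 to 3780 CPM in EV cells with DMSO, most of it 4 keratins. Cdh1 went the other way with romidepsin, averaging 227 CPM in NRF2 and 246 CPM in EV cells, against 417 CPM in NRF2 and 353 CPM in EV cells with DMSO. The summed level of 10 mesenchymal and fibroblast markers, of which 6 averaged at least 1 CPM, was 6060 to 6440 CPM in NRF2 and 7240 to 7390 CPM in EV cells with romidepsin, and 4470 to 4570 CPM in NRF2 and 5120 to 5240 CPM in EV cells with DMSO, most of it Vim and Fn1, while the fibroblast markers Dcn and Lum averaged at most 0.0606 CPM in any group. Vim was higher with romidepsin, at 5350 CPM in NRF2 and 6110 CPM in EV cells, against 3080 and 3440 CPM with DMSO. Fn1 went the other way, averaging 834 CPM in NRF2 and 1140 CPM in EV cells with romidepsin, against 1360 and 1660 CPM with DMSO. Cdh2 was also lower with romidepsin, at 29.3 and 41.3 CPM against 77.8 and 99.3 CPM in the same lines. The summed level of 5 smooth muscle markers was 20.6 to 21.4 CPM in NRF2 and 18.3 to 20.3 CPM in EV cells with romidepsin, against 0.364 to 0.761 CPM in NRF2 and 0.463 to 0.711 CPM in EV cells with DMSO; with romidepsin most of it was Cnn1, which averaged 0.0381 CPM in NRF2 and 0.0257 CPM in EV cells with DMSO, and the defining markers Acta2 and Actg2 averaged at most 0.221 CPM in any group. The sum of 8 blood and immune markers was 70.8 to 75.2 CPM in NRF2 and 50.3 to 55.9 CPM in EV cells with romidepsin, against 4.38 to 4.91 CPM in NRF2 and 2.88 to 4.50 CPM in EV cells with DMSO, most of it Cd68, while the defining marker Ptprc averaged at most 0.549 CPM in any group. The part of these marker changes in the results was not tested, and in bulk RNA a change in the share of cells that express a gene cannot be told apart from a change in the RNA per cell.

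Among the tensins, Tns1 was nearly silent in EV cells with DMSO and was present with either NRF2 or romidepsin, with the highest level in NRF2 cells given romidepsin. It had 303, 460 and 275 estimated counts in NRF2 cells with romidepsin, 58, 50 and 57 in EV cells with romidepsin, 55, 70 and 56 in NRF2 cells with DMSO, and 1, 4 and 2 in EV cells with DMSO. These are 14.2, 16.2 and 15.7 CPM, 2.85, 2.25 and 2.69 CPM, 2.70, 2.66 and 3.39 CPM, and 0.0534, 0.237 and 0.0771 CPM in the same order of groups. The EV libraries with romidepsin overlapped the NRF2 libraries with DMSO, and no other pair of neighbouring groups overlapped. Tensin 1 links integrins to actin filaments and is a component of fibrillar adhesions.

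The test of Tns1 in libraries that its choice had not used is that of NRF2 over EV cells with romidepsin, where it rose. With romidepsin Tns1 averaged 15.3 ± 1.05 CPM in NRF2 cells and 2.60 ± 0.308 CPM in EV cells (SD, n = 3 each), which is 5.91-fold higher, or 2.56 ± 0.14 on the log2 scale (SE), with an edgeR adjusted p of 3.5e-10. The ratio of summed counts was 5.95, with a 95% counting interval of 5.05 to 7.06. Among all genes tested this change stood at percentile 99.7.

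With DMSO the Tns1 level was 2.92 ± 0.410 CPM in NRF2 cells and 0.122 ± 0.0998 CPM in EV cells, a log2 difference of 4.59 ± 0.31. The summed counts, 181 in NRF2 and 7 in EV cells, gave a ratio of 25.2 with a 95% counting interval of 12 to 63.6, so the size of the fold is poorly fixed. Romidepsin was accompanied by a log2 difference of 2.41 ± 0.14 in NRF2 cells and of 4.44 ± 0.31 in EV cells, where the ratio of summed counts was 22.8 (10.8 to 57.5). Leaving out replicate 2 of EV cells with DMSO, which held 4 of the 7 counts, moved the log2 difference between NRF2 and EV cells with DMSO to 5.31 and that of romidepsin in EV cells to 5.15. Tns1 passed the low-count filter only through the groups other than EV cells with DMSO, so a rise from that group was in part fixed by the filter.

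How NRF2 and romidepsin combined on Tns1 depended on the scale. In CPM, NRF2 with DMSO stood 2.80 above EV with DMSO, romidepsin in EV cells stood 2.48 above it, and NRF2 with romidepsin stood 15.2 above it, more than the sum of 5.27. On the log2 scale the combined level was below the product of both changes, with an interaction of -2.03 ± 0.41. This log2 value moved to -2.75 without replicate 2 of EV cells with DMSO, and neither value was tested.

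**Figure D1:**
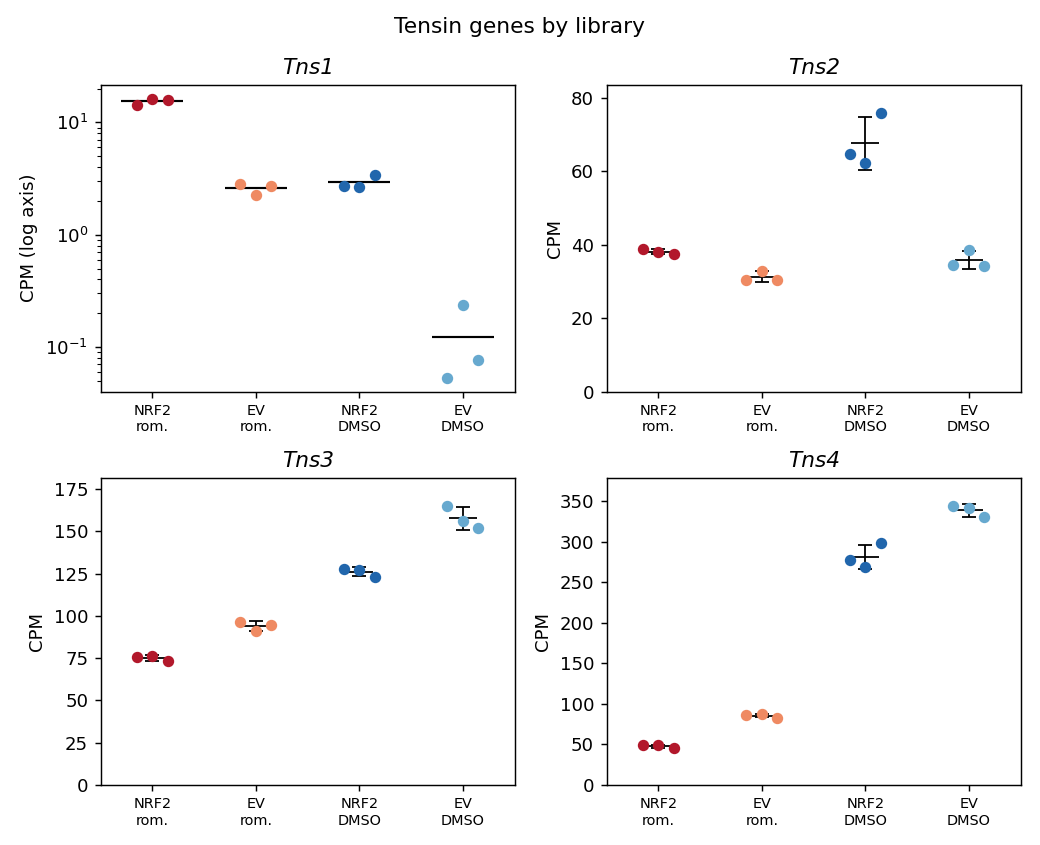
Level in CPM of each tensin gene in the 12 libraries, grouped by cell line and treatment (rom., romidepsin). Points are libraries; lines are means, with SD bars except for Tns1, whose axis is logarithmic. Tns1 is highest in NRF2 cells with romidepsin (14.2 to 16.2 CPM), where Tns4 is lowest (45.1 to 48.9 CPM).

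Tns4 went the other way. It had 48.9, 48.6 and 45.1 CPM in NRF2 cells with romidepsin, 86.4, 87.3 and 82.8 CPM in EV cells with romidepsin, 277, 269 and 298 CPM in NRF2 cells with DMSO, and 344, 342 and 330 CPM in EV cells with DMSO. No 2 groups overlapped, and the order was the reverse of that of Tns1 at both ends. Romidepsin lowered Tns4 by 5.92-fold in NRF2 cells (log2 -2.56 ± 0.05; edgeR adjusted p = 4.0e-17) and by 3.96-fold in EV cells (log2 -1.98 ± 0.05; edgeR adjusted p = 9.9e-16). These changes stood at percentiles 0.889 and 1.16 of all genes tested. The fall was larger in NRF2 cells, by 0.58 ± 0.07 on the log2 scale (edgeR adjusted p = 2.9e-05). With romidepsin Tns4 was 1.80-fold lower in NRF2 than in EV cells (log2 -0.85 ± 0.05; edgeR adjusted p = 1.4e-09), and with DMSO the log2 difference was -0.27 ± 0.05.

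Tns3, another actin-linked tensin, was lower with romidepsin and lower with NRF2. Its libraries held 75.6, 76.4 and 73.2 CPM in NRF2 cells with romidepsin, 96.4, 91.0 and 94.6 CPM in EV cells with romidepsin, 128, 127 and 123 CPM in NRF2 cells with DMSO, and 165, 156 and 152 CPM in EV cells with DMSO. The 4 groups did not overlap and had the same order as Tns4. Romidepsin lowered it by 1.68-fold in NRF2 cells and 1.67-fold in EV cells (edgeR adjusted p = 6.4e-11 and 8.0e-11), and its response in NRF2 minus that in EV cells was 0 ± 0.06 on the log2 scale (edgeR adjusted p = 1). NRF2 over EV cells gave log2 -0.32 ± 0.05 with romidepsin (edgeR adjusted p = 2.4e-05), and the description with DMSO was also -0.32 ± 0.05.

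Tns2, a tensin with an additional C1 domain, was highest in NRF2 cells with DMSO. It had 38.9, 38.0 and 37.5 CPM in NRF2 cells with romidepsin, 30.5, 33.0 and 30.5 CPM in EV cells with romidepsin, 64.7, 62.4 and 76.0 CPM in NRF2 cells with DMSO, and 34.6, 38.6 and 34.2 CPM in EV cells with DMSO. NRF2 cells with romidepsin and EV cells with DMSO overlapped, and the other neighbouring groups did not. Romidepsin lowered Tns2 by 1.77-fold in NRF2 cells (log2 -0.82 ± 0.07; edgeR adjusted p = 5.1e-09) and by 1.14-fold in EV cells (log2 -0.19 ± 0.07; edgeR adjusted p = 0.029). The difference between the lines was -0.64 ± 0.10 on the log2 scale (edgeR adjusted p = 4.3e-04). The small fall in EV cells was not called with RLE factors (adjusted p = 0.069), upper-quartile factors (0.37), library size alone (0.42), a filter of 1 CPM in 3 libraries (0.057), DESeq2 (0.11) or limma on the deposited values (0.056), nor in edgeR fits that left out the EV library with DMSO numbered 2 (0.14) or the EV libraries with romidepsin numbered 1 (0.086) or 3 (0.089). NRF2 over EV cells gave log2 0.28 ± 0.07 with romidepsin (edgeR adjusted p = 0.0044) and, as a description, 0.92 ± 0.07 with DMSO, or 0.84 without the library that stood apart.

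Set per length, so that genes can be compared, the tensin transcripts were mostly Tns4 with DMSO and more evenly divided with romidepsin. As a share of the summed CPM per kilobase of annotated exon, Tns4 made up 38.5 ± 0.693% in NRF2 cells with romidepsin, 53.6 ± 0.563% in EV cells with romidepsin, 69.6 ± 0.112% in NRF2 cells with DMSO and 76.0 ± 0.244% in EV cells with DMSO (SD, n = 3 each). Tns2 had a share of 29.3 ± 0.486% in NRF2 cells with romidepsin, against 15.8 ± 0.873% with DMSO, although its level fell. Tns1 made up 4.02 ± 0.322% in NRF2 cells with romidepsin and 0.00885 ± 0.00711% in EV cells with DMSO. The summed level of the 4 tensins was 23.9 ± 0.633 against 78.4 ± 4.05 CPM per kilobase in NRF2 cells with romidepsin and with DMSO, and 30.9 ± 0.529 against 86.2 ± 2.13 CPM per kilobase in EV cells. These shares use the length of all annotated exons of a gene, and the isoforms in use may be shorter.

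**Figure D2:**
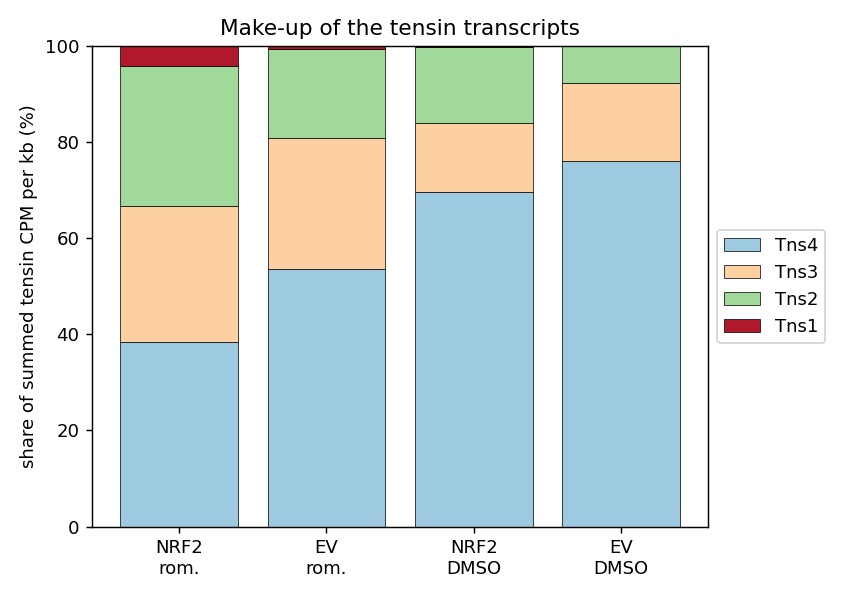
Share of each tensin gene in the summed tensin level, in CPM per kilobase of annotated exon, as the mean of 3 libraries in each group (rom., romidepsin). The share of Tns4 is 38.5% in NRF2 cells with romidepsin and 76.0% in EV cells with DMSO.

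Of the adaptors, Vcl and Pxn were higher with romidepsin. Vinculin, the product of Vcl, holds talin to actin under force; Vcl had 577, 577 and 587 CPM in NRF2 cells with romidepsin, 425, 416 and 422 CPM in EV cells with romidepsin, 279, 269 and 336 CPM in NRF2 cells with DMSO, and 221, 228 and 211 CPM in EV cells with DMSO. No groups overlapped, and the value of 336 came from the library that stood apart. Romidepsin raised Vcl by 1.97-fold in NRF2 cells (log2 0.98 ± 0.06; edgeR adjusted p = 1.6e-10) and 1.92-fold in EV cells (log2 0.94 ± 0.06; edgeR adjusted p = 4.1e-10). NRF2 cells with romidepsin were 1.38-fold above EV cells with romidepsin (log2 0.46 ± 0.06; edgeR adjusted p = 1.6e-05). With DMSO the description was 0.42 ± 0.06, or 0.32 without the library that stood apart. Of the 9 other members Vcl had the profile nearest to that of Tns1, with a root mean square difference of 0.909 on centred log2(CPM + 1) over the 12 libraries.

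Pxn encodes paxillin, a scaffold with LIM domains that focal adhesion kinase phosphorylates. It had 325, 348 and 345 CPM in NRF2 cells with romidepsin, 316, 311 and 321 CPM in EV cells with romidepsin, 193, 195 and 183 CPM in NRF2 cells with DMSO, and 185, 191 and 195 CPM in EV cells with DMSO. The DMSO groups overlapped, and both romidepsin groups lay above them. Romidepsin raised Pxn by 1.78-fold in NRF2 and 1.66-fold in EV cells (edgeR adjusted p = 5.5e-12 and 5.0e-11). The NRF2 difference with romidepsin was log2 0.10 ± 0.04 (edgeR adjusted p = 0.062). It was called with DESeq2 (adjusted p = 0.040), and in edgeR fits of these 2 groups alone (0.0075) or with the NRF2 library that stood apart left out (0.030).

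Ilk encodes integrin-linked kinase, a pseudokinase that forms a complex with PINCH and parvin proteins. It had 201, 200 and 197 CPM in NRF2 cells with romidepsin, 176, 176 and 178 CPM in EV cells with romidepsin, 159, 161 and 137 CPM in NRF2 cells with DMSO, and 133, 145 and 140 CPM in EV cells with DMSO. Ilk was higher in the romidepsin groups, which did not overlap, and the DMSO groups overlapped. Romidepsin raised it by 1.31-fold in NRF2 and 1.27-fold in EV cells (edgeR adjusted p = 3.5e-06 and 1.8e-05), and NRF2 over EV cells with romidepsin gave log2 0.17 ± 0.05 (edgeR adjusted p = 0.014), a call lost without replicate 1 of NRF2 cells with romidepsin (0.069).

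Tln1, Zyx and Ptk2 were lower with romidepsin. Talin 1, the product of Tln1, is the main activator of integrins; Tln1 had 254, 274 and 265 CPM in NRF2 cells with romidepsin, 278, 275 and 275 CPM in EV cells with romidepsin, 395, 380 and 371 CPM in NRF2 cells with DMSO, and 398, 391 and 385 CPM in EV cells with DMSO. The lines overlapped with DMSO and lay apart by a narrow margin with romidepsin. The fall was 1.45-fold in NRF2 and 1.42-fold in EV cells (edgeR adjusted p = 1.9e-09 and 5.4e-09), and the NRF2 difference with romidepsin, log2 -0.06 ± 0.04, did not pass (edgeR adjusted p = 0.23).

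Zyxin, the product of Zyx, is a LIM protein that is recruited to adhesions and actin fibres under tension. Zyx had 75.4, 78.9 and 82.4 CPM in NRF2 cells with romidepsin, 92.6, 88.8 and 92.6 CPM in EV cells with romidepsin, 145, 144 and 141 CPM in NRF2 cells with DMSO, and 125, 136 and 152 CPM in EV cells with DMSO. The DMSO groups overlapped and the romidepsin groups did not. Romidepsin lowered Zyx by 1.82-fold in NRF2 cells and 1.51-fold in EV cells (edgeR adjusted p = 3.0e-10 and 5.9e-08). The difference between the lines, -0.27 ± 0.08 on the log2 scale, had an edgeR adjusted p of 0.037. It was not called when 1 library was left out among EV libraries with DMSO numbered 1 and 2 (0.084 and 0.085), EV libraries with romidepsin numbered 1, 2 and 3 (0.086, 0.060 and 0.080) and NRF2 libraries with romidepsin numbered 1 and 2 (0.066 and 0.080). With romidepsin Zyx was lower in NRF2 than in EV cells (log2 -0.21 ± 0.06; edgeR adjusted p = 0.0083).

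Ptk2, the gene of focal adhesion kinase, had the smallest range of the 10 genes, with 1.28 times between its highest and lowest group. It had 93.5, 94.6 and 86.1 CPM in NRF2 cells with romidepsin, 88.8, 91.8 and 88.6 CPM in EV cells with romidepsin, 114, 115 and 115 CPM in NRF2 cells with DMSO, and 101, 100 and 103 CPM in EV cells with DMSO. The romidepsin groups overlapped, and NRF2 cells with DMSO lay above the rest. Ptk2 was lowered by romidepsin by 1.26-fold in NRF2 (edgeR adjusted p = 2.7e-06) and 1.13-fold in EV cells (edgeR adjusted p = 0.0019). Upper-quartile factors and library size alone raised the median change of all genes with romidepsin to 0.12 and 0.15 in NRF2 and to 0.12 and 0.13 in EV cells (log2), against 0.01 in each with TMM, and under them the fall of Ptk2 in EV cells was not called (edgeR adjusted p = 0.21 and 0.27). Its response in NRF2 minus that in EV cells was -0.15 ± 0.06 (edgeR adjusted p = 0.12), and was called with the NRF2 library that stood apart left out (-0.17; edgeR adjusted p = 0.045).

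**Figure D3:**
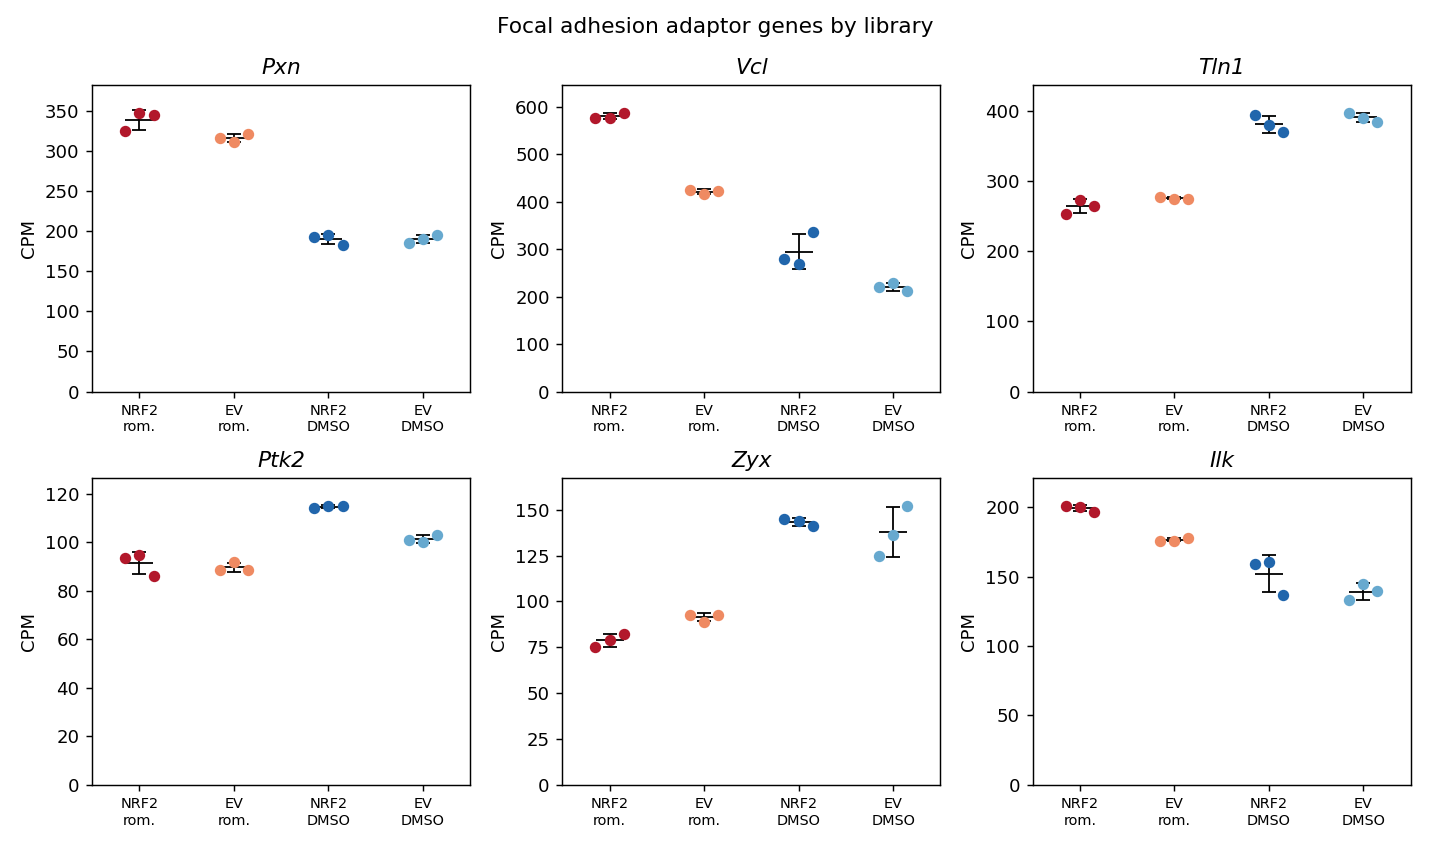
Level in CPM of the 6 adaptor genes in the 12 libraries, grouped by cell line and treatment (rom., romidepsin). Points are libraries and bars are mean ± SD. Vcl ranges over 577 to 587 CPM in NRF2 cells with romidepsin and 211 to 228 CPM in EV cells with DMSO, and Ptk2 over 86.1 to 94.6 and 100 to 103 CPM in the same groups.

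Counted together, 3 of the 9 members tested rose with romidepsin (Pxn, Vcl and Ilk), in NRF2 as in EV cells. In each line 6 fell (Tns2, Tns3, Tns4, Tln1, Ptk2 and Zyx). In EV cells the calls of Tns2 and Ptk2 were lost with upper-quartile factors and with library size alone. Of all genes tested, 79.8% were called with romidepsin in NRF2 cells (40.5% higher, 39.3% lower) and 76.5% in EV cells (39.1% higher, 37.4% lower), so a call of either sign was the common outcome. Of the 9 members other than Tns1, all 3 romidepsin libraries lay above all 3 DMSO libraries for 3 and below them for 6 in each line, beside 40.8% and 39% of all genes in NRF2 and 41.1% and 39.9% in EV cells. The median log2 change of the 10 members was -0.43 in NRF2 and -0.18 in EV cells, beside 0.01 over all genes in each. With romidepsin, NRF2 over EV cells raised 4 of 10 members (Tns1, Tns2, Vcl and Ilk) and lowered 3 (Tns3, Tns4 and Zyx), beside 23% of all genes called higher and 22.4% called lower, with medians of 0.06 over the members and 0 over all genes. All 3 NRF2 libraries with romidepsin lay above all 3 EV libraries for 5 members and below them for 4, beside 30.8% and 30.4% of all genes. Tns1, chosen for its rise between the same lines with DMSO, is among the members higher in these counts and is in the median. With DMSO, leaving aside Tns1, which was chosen for its rise there, all 3 NRF2 libraries lay above all 3 EV libraries for Tns2, Vcl and Ptk2 and below them for Tns3 and Tns4, beside 21.8% and 20.7% of all genes; since the members were chosen with this comparison known, nothing is read from these counts. A difference in the romidepsin response between the lines was called for 3 of 9 members (Tns2, Tns4 and Zyx), each more negative in NRF2 cells. Of all genes, 10.2% were called in that direction and 5.53% in the other, or 15.8% in all. This difference contains the comparison of the lines with DMSO, known when the members were chosen, so nothing is read from this count. With the NRF2 library that stood apart left out, these counts were 5 higher and 3 lower for NRF2 over EV cells with romidepsin and 4 for the difference between the lines, while the romidepsin counts were 3 higher and 6 lower in each line.

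**Figure D4:**
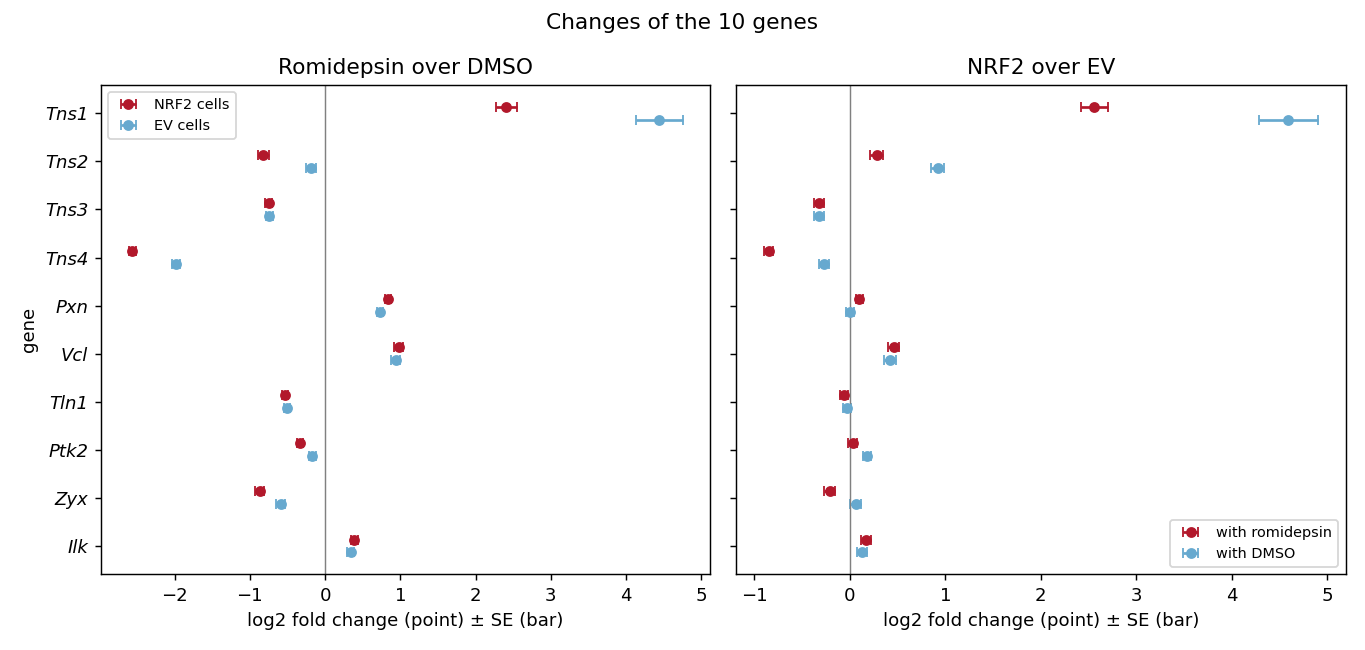
Log2 fold changes of the 10 genes (points) with SE (bars) for romidepsin over DMSO in NRF2 and EV cells (left) and for NRF2 over EV cells with romidepsin and DMSO (right). Positive values are higher with romidepsin or in NRF2 cells. For romidepsin over DMSO, Tns1 has the largest positive values (2.41 in NRF2 and 4.44 in EV cells) and Tns4 the most negative (-2.56 and -1.98).

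Genes most like Tns1 over the 12 libraries were sought among the 9865 whose mean reached 5 CPM, by the root mean square difference of centred log2(CPM + 1). The 6 nearest were Speg (0.213), a kinase of striated muscle, Hmox1 (0.261), haem oxygenase 1, Osgin1 (0.284), Tmem179 (0.378), Clu (0.378), the secreted chaperone clusterin, and Loxl2 (0.386), a lysyl oxidase that crosslinks collagen. Speg averaged 14.1 ± 1.66 CPM in NRF2 and 3.31 ± 0.665 CPM in EV cells with romidepsin, and 3.63 ± 0.317 CPM in NRF2 and 0.397 ± 0.153 CPM in EV cells with DMSO. Hmox1 averaged 569 ± 35.3 and 90 ± 3.30 CPM in NRF2 and EV cells with romidepsin, and 100 ± 6.52 and 37.4 ± 4.05 CPM in NRF2 and EV cells with DMSO. Since these genes were picked for their likeness to Tns1 over the same libraries, their similar profile follows from that choice. Osgin1, Tmem179 and Loxl2 averaged higher in EV cells with romidepsin than in NRF2 cells with DMSO, unlike Tns1. Adding 1 CPM before the log narrows the range of Tns1, whose lowest group averaged 0.122 CPM, so the likeness depends in part on it.

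The other focal adhesion genes were taken from lists drawn from general knowledge with earlier results of these data known. Counts of these lists are descriptions with no test of a list. The genes named were taken largely by the size of their change, so they do not stand for their list. Of 68 tested genes of 6 such lists, 32 rose and 26 fell with romidepsin in NRF2 cells and 33 rose and 25 fell in EV cells, with medians of 0.16 and 0.13. Of all genes, 79.8% in NRF2 and 76.5% in EV cells were called, so the share called among the lists was near that of all genes. Among 13 integrin activators and partners of integrin-linked kinase, 9 rose and 4 fell in NRF2 cells and 9 rose and 3 fell in EV cells. Kank3, of the family that binds talin at the rim of adhesions, averaged 47.9 ± 2.82 CPM in NRF2 and 40.2 ± 1.08 CPM in EV cells with romidepsin, and 15.4 ± 1.19 CPM in NRF2 and 10.8 ± 1.75 CPM in EV cells with DMSO. It rose by 3.10-fold and 3.67-fold with romidepsin (edgeR adjusted p = 5.7e-12 in NRF2 and 2.9e-12 in EV cells). Fermt1, kindlin 1, another integrin activator, was lower with romidepsin in NRF2 cells, at 1.24 ± 0.391 CPM against 3.63 ± 0.110 CPM with DMSO (edgeR adjusted p = 1.4e-05). Lims2, a PINCH protein, rose by 10.6-fold in NRF2 and 7.89-fold in EV cells (edgeR adjusted p = 9.2e-11 and 3.7e-09). With DMSO it averaged only 0.526 ± 0.199 CPM in NRF2 and 0.439 ± 0.108 CPM in EV cells. Lims2 may thus have passed the low-count filter through the romidepsin groups, so its rise may be in part fixed by the filter. Parva, alpha-parvin, fell by 2.2-fold in NRF2 and 1.75-fold in EV cells (edgeR adjusted p = 4.7e-13 and 6.2e-11).

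Of 11 LIM adaptors related to paxillin and zyxin, 7 fell and 1 rose with romidepsin in NRF2 cells and 6 fell and 2 rose in EV cells (medians -0.33 and -0.29), where 39.3% and 37.4% of all genes were called lower. Tgfb1i1, which encodes the paxillin relative HIC-5, averaged 0.311 ± 0.121 CPM in NRF2 cells with romidepsin against 3.66 ± 1.08 CPM with DMSO, and 0.189 ± 0.0822 CPM in EV cells with romidepsin against 0.800 ± 0.185 CPM with DMSO (edgeR adjusted p = 1.3e-08 and 4.8e-04). With so low a level in romidepsin it may have passed the low-count filter through the DMSO groups, so its fall may be in part fixed by the filter. Trip6, a relative of zyxin, fell by 2.95-fold in NRF2 and 3.05-fold in EV cells and Ajuba by 2.69-fold and 2.25-fold, whereas Csrp1 rose by 2.37-fold and 2.36-fold (edgeR adjusted p of 1.9e-11 or less in each case). Of 15 genes of focal adhesion kinase, SRC and CAS signalling, 8 rose and 5 fell in NRF2 cells and 9 rose and 5 fell in EV cells, beside 79.8% and 76.5% of all genes called in either direction. Src fell to 87.6 ± 3.45 CPM in NRF2 cells with romidepsin, against 268 ± 14.6 CPM with DMSO, and to 102 ± 4.78 CPM in EV cells with romidepsin, against 248 ± 3.91 CPM with DMSO, with an edgeR adjusted p of 7.8e-15 and 2.3e-13. Dock1, an activator of RAC downstream of CAS proteins, fell by 3.18-fold in NRF2 and 2.63-fold in EV cells, and the scaffold gene Nedd9 rose by 2.40-fold in NRF2 and 1.79-fold in EV cells (edgeR adjusted p = 5.6e-11 and 9.3e-09).

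Of 14 actin linkers, 6 rose and 7 fell in NRF2 cells and 5 rose and 8 fell in EV cells (medians -0.27 and -0.36). Of all genes, 79.8% in NRF2 and 76.5% in EV cells were called, so a call of either sign was the common outcome. Flnc, filamin C, averaged 2450 ± 177 CPM with romidepsin against 304 ± 35.4 CPM with DMSO in NRF2 cells, and 2260 ± 82.4 CPM against 255 ± 6.52 CPM in EV cells, a rise of 8.05-fold and 8.87-fold (edgeR adjusted p = 2.0e-15 and 2.3e-15). Nexn, the actin-binding nexilin, fell by 7.47-fold in NRF2 and 4.14-fold in EV cells (edgeR adjusted p = 2.2e-07 and 2.3e-06). On a further list of 15 genes of the SRF and YAP pathways, which include known targets of mechanical signalling, 6 rose and 8 fell in NRF2 cells and 7 rose and 7 fell in EV cells. These counts stand beside the same shares of all genes called. Ccn2 rose by 3.68-fold in NRF2 and 4.93-fold in EV cells and Yap1 fell by 2.98-fold and 2.59-fold (edgeR adjusted p of 6.1e-14 or less). Cnn1, calponin 1, averaged 16.9 ± 0.225 CPM in NRF2 cells with romidepsin against 0.0381 ± 0.0659 CPM with DMSO, and 16.6 ± 0.932 CPM against 0.0257 ± 0.0445 CPM in EV cells, too few reads with DMSO to fix a fold.

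**Figure D5:**
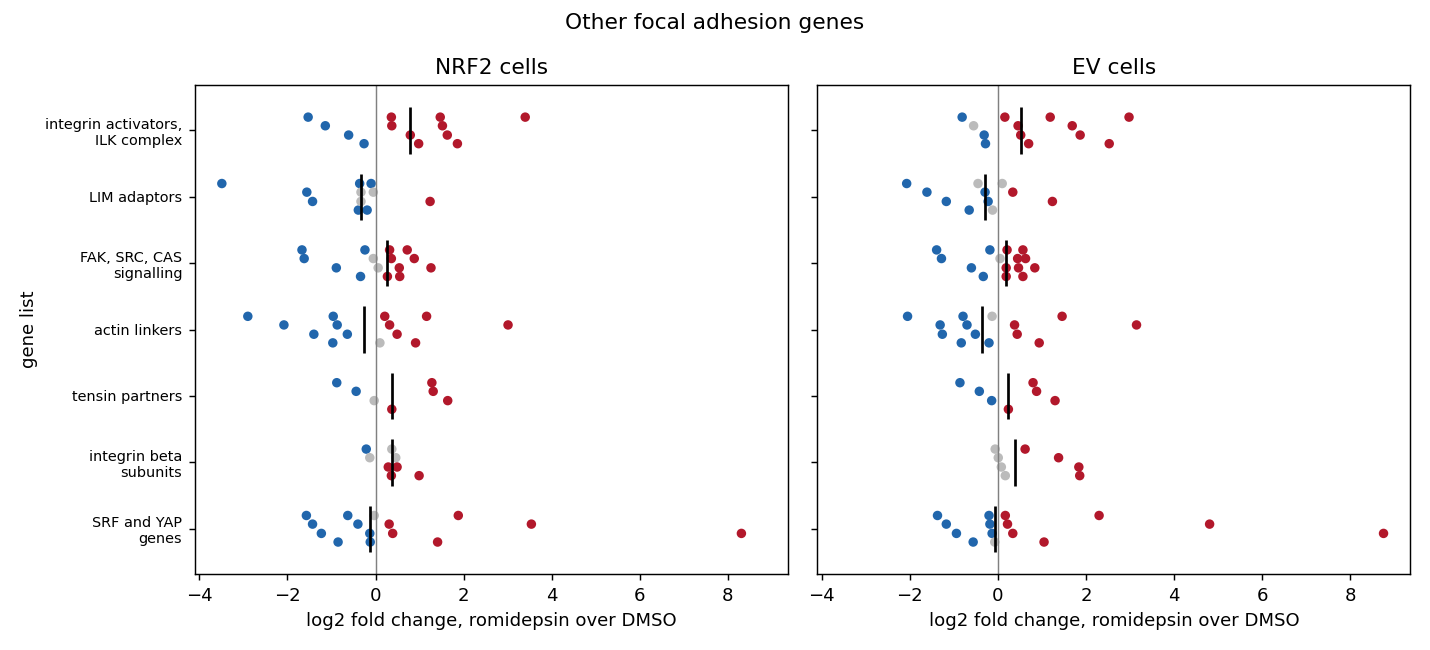
Log2 fold changes of single genes for romidepsin over DMSO in NRF2 cells (left) and EV cells (right), by gene list. Red and blue points are genes called higher and lower, grey points were not called, and black bars are list medians. Every list has points on both sides of 0; the farthest to the right is Cnn1.

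Among partners of tensins, romidepsin raised 4 of 7 and lowered 2 in NRF2 cells and raised 4 and lowered 3 in EV cells. Of all genes, 79.8% in NRF2 and 76.5% in EV cells were called in either direction. The RhoGAP genes Dlc1 and Stard13, whose products bind tensins, both rose. Dlc1 averaged 22.3 ± 1.76 CPM in NRF2 cells with romidepsin, 48.2 ± 2.50 CPM in EV cells with romidepsin, 9.05 ± 0.445 CPM in NRF2 cells with DMSO and 27.7 ± 0.998 CPM in EV cells with DMSO. With romidepsin Dlc1 was thus lower in NRF2 than in EV cells (log2 -1.11 ± 0.07, edgeR adjusted p = 1.7e-09). The description with DMSO was -1.62 ± 0.08. Egfr, which in human mammary cells controls the balance of tensin 3 and tensin 4, rose by 3.11-fold in NRF2 and 1.84-fold in EV cells (edgeR adjusted p = 2.0e-11 and 3.6e-07). Axl fell, to 565 ± 9.57 CPM in NRF2 cells with romidepsin against 1040 ± 8.59 CPM with DMSO. In EV cells Axl averaged 616 ± 1.84 CPM with romidepsin against 1120 ± 16.9 CPM with DMSO (edgeR adjusted p = 8.6e-13 in NRF2 and 1.9e-12 in EV cells).

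NRF2 over EV cells with romidepsin gave 22 higher and 20 lower of the 68 other focal adhesion genes, and with DMSO 27 higher and 16 lower, beside 45.4% and 36.3% of all genes called in either direction. Since the lists were chosen with earlier results known, values and counts with DMSO are a description and nothing is read from them. Of the 7 tensin partners 1 was higher and 4 were lower with romidepsin, and 1 was higher and 5 were lower with DMSO. Palld, the actin-bundling palladin, was 1.83-fold lower with romidepsin (edgeR adjusted p = 4.8e-09) and, as a description, 2.43-fold lower with DMSO. Of the integrin beta subunits, Itgb7 was 1.94-fold higher with romidepsin (edgeR adjusted p = 8.4e-06) and, as a description, 5.01-fold higher with DMSO. Itgb1, the most widely used subunit, had a log2 difference of -0.41 ± 0.04 with romidepsin (edgeR adjusted p = 9.6e-07) and, as a description, of -0.13 ± 0.04 with DMSO.

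Positions are on GRCm38. Tns1 lies on chromosome 1 (73910231 to 74124449, minus strand) and Tns2 on chromosome 15 (102100413 to 102116401, plus strand). Tns3 and Tns4 lie far apart on chromosome 11 (8431652 to 8664535 and 99065678 to 99089306, both on the minus strand). Of the adaptors, 4 share exon bases with genes on the opposite strand. Ilk shares 2106 of its 2744 exon bases, most of the gene, with Taf10 and 355 with Rrp8. Vcl shares 2090 of 8191 with Ap3m1, Tln1 360 of 9801 with Creb3 and Zyx 236 of 5390 with Epha1. Whether the counts kept strands apart is not given in the sources used here, so reads from these stretches may not be told apart. Creb3 had a log2 change with romidepsin of 1.32 in NRF2 and 1.31 in EV cells, where Tln1 fell, and Ap3m1 had 0.50 and 0.57, beside 0.98 and 0.94 for Vcl. For Ilk, which had 0.39 and 0.34, Taf10 had 0.25 and 0.20 and Rrp8 -0.93 and -0.80. Epha1 had 4.87 and 3.67, where Zyx fell, at a level of at most 1.93 CPM in any group. None of the 4 tensins shares bases with another annotated gene.

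Promoter windows of 300 bases, from 250 before to 50 after the start, were taken from RefSeq (GRCm38.p6) and were matched for 7 of the 10 members, in 8 windows. Those of Tns1 and Vcl, which were higher with romidepsin and in NRF2 cells, and of Zyx, which was lower with romidepsin, are shown; capitals mark every match, on either strand, to the motifs searched. Matches may overlap each other, as in a stretch of GC boxes of Vcl.
Tns1 (chr1:74124499-74124798, minus strand): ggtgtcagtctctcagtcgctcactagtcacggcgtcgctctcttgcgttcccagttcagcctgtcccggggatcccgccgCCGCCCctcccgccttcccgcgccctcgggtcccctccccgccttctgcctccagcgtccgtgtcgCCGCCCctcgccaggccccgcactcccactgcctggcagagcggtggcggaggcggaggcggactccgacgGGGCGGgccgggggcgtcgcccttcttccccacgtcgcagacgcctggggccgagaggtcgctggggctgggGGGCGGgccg
Vcl (chr14:20929148-20929447, plus strand): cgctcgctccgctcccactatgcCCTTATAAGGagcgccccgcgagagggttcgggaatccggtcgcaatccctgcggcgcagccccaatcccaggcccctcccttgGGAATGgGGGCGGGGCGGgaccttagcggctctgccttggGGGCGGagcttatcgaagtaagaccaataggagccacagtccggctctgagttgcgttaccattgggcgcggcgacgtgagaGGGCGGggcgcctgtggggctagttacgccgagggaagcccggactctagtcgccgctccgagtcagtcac
Zyx (chr6:42349578-42349877, plus strand): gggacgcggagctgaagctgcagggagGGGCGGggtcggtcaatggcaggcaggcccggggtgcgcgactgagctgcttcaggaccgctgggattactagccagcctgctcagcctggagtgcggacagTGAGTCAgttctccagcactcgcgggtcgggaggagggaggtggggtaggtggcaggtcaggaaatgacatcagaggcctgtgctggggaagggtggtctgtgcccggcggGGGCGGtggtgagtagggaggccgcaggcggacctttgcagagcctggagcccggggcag

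The core of the antioxidant response element that NRF2 binds (TGACNNNGC) was in none of the 8 windows, and in 12.4% of all 32851 promoter windows of this length. Vcl held the CArG box of SRF, which 1.63% of all windows hold, at position -227 from the start, and a TEAD site (GGAATG; 14.7% of windows) at -143. Zyx held an AP-1 site (TGANTCA; 7.81% of windows) at -121. The GC box (GGGCGG, 35.7% of windows) was in Tns1, Tns3, Vcl and Zyx and in 1 of the 2 windows of Ilk. Tns1, Tns3 and Vcl had 4 matches each. The windows of Tns2 and Tln1 held no match to these 5 motifs. A match or its absence describes these letters only.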

How the data were processed

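The labels' protocols give Trizol extraction, poly-A selection and TruSeq libraries. Per the submitters' processing notes, bcl2fastq 2.19, kallisto 0.44.0, DESeq2 (no version) and GRCm38 were used. The deposited estimated counts per gene symbol were whole numbers (100% of values, with no tolerance) and were used as they stand. The deposited normalized signal of the members was, within rounding, those counts divided by 1 factor per library.

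The members and lists were chosen with earlier results of these data known. Genes were kept by edgeR's default filter (13502 left) and tested with edgeR 4.0.16 (quasi-likelihood, robust, TMM factors, prior count 0.125, two-sided) in 1 fit of 12 libraries with 8 residual degrees of freedom, with 5 contrasts, adjusted by Benjamini-Hochberg over all genes tested. SE is the absolute log2 fold change over the square root of F. The pipeline was tested on simulated data. Counting intervals are exact binomial ones and cover counting error only. From each list and comparison up to 4 called genes averaging 1 CPM or more could be named, taken by the size of their change, plus the foremost against the majority; not all are printed. Lists were counted and not set-tested. Annotation was GENCODE M21 on GRCm38, and promoters came from RefSeq GRCm38.p6.

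Other settings were scaling by RLE, by upper quartiles or by library size alone; dropping the filter or asking for 1 CPM in 3 libraries; DESeq2 1.42.0, limma 3.58.1 (voom, and on log2 of the deposited signal + 1), the compared groups alone, a replicate block, and leaving out each library. No pair of replicates agreed within sampling noise (chi-square per degree of freedom of 2.34 to 42.7). The design had foreseen a romidepsin test of Tns1, which is given here without a p.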

Additional observations from a re-analysis of the deposited data

Results flagged for a closer look

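The romidepsin response of 3 genes differed between NRF2 and EV cells by the edgeR test of the difference itself. The log2 difference was -0.64 ± 0.10 for Tns2 (edgeR adjusted p = 4.3e-04), -0.58 ± 0.07 for Tns4 (edgeR adjusted p = 2.9e-05) and -0.27 ± 0.08 for Zyx (edgeR adjusted p = 0.037). Each thus fell more in NRF2 than in EV cells. This test contains the comparison of NRF2 and EV cells with DMSO, which was known when the members were chosen. For Tns2 that comparison gave a log2 difference of 0.92, against 0.28 with romidepsin. For Zyx the call was lost without any 1 of 7 libraries, named beside its values above. In Tns2 the DMSO group of NRF2 cells held the library that stood apart, at 76.0 CPM against 64.7 and 62.4 CPM; without it the difference was -0.57 (adjusted p = 2.1e-06).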

How the results depend on the processing

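The counts of members called higher and lower stayed within 1.5 times their values under every alternative that gave a value, as did the counts of non-overlapping members with DMSO. Within that margin, Tns2 and Ptk2 lost their calls in EV cells with upper-quartile factors and with library size alone. Without single libraries, the members called with NRF2 over EV under romidepsin ranged from 3 to 5 higher with 3 lower, those called with romidepsin were 3 higher and 6 lower in NRF2 and 3 higher and 5 to 6 lower in EV cells, and those whose response differed between the lines were 2 to 4 lower. The difference between the lines of genes near 0 changed sign: Tns3 gave 0 with RLE factors and 0.02 with library size alone and -0.04 to 0.02 without single libraries, Vcl -0.04 to 0.13 and Ilk -0.04 to 0.07. The NRF2 difference of Ptk2 with romidepsin was 0 to 0.07. Same-numbered libraries shared only a number (correlation of their deviations -0.123 to 0.0625), and with the replicate block 4 members were higher and 3 lower in NRF2 over EV cells with romidepsin, 3 higher and 6 lower with romidepsin in either line, and 3 lower in the difference between the lines. Depth limits the Tns1 level of EV cells with DMSO, which rests on 7 counts. The difference between the lines needs all 4 groups, so it has no fit of fewer groups.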
